A study of Caenorhabditis elegans with 16 samples.

Results

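Auxin (indole-3-acetic acid, IAA) is a plant hormone that worm laboratories add to agar plates to trigger the destruction of proteins carrying a degron tag. The data described here compare auxin plates with control plates in wild-type N2 *Caenorhabditis elegans*, which carry neither a tag nor TIR1, the plant F-box protein through which auxin acts on tagged proteins. The 4 libraries from N2 worms on auxin plates were compared with the 4 libraries from N2 worms on plates without auxin, which are 8 of the 16 libraries in the series. All genes that passed a low-count filter were described, 11101 of the 42048 in the deposited table, and 19017 genes had at least 1 count in N2.

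The study used auxin to remove SYP-2, a protein of the synaptonemal complex that holds paired chromosomes together in meiosis, and sequenced whole-worm RNA to ask whether its loss changes transcription. The series names N2 worms as controls. The other 8 libraries came from *syp-2::AID* worms, in which SYP-2 carries the degron tag and TIR1 is expressed in the germline from the *sun-1* promoter, with and without auxin.

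Every group held 4 biological replicates of 50 young adult worms each, taken 18 to 24 h after the L4 stage. They had been grown at 20 °C on the OP50 strain of *Escherichia coli* and were then kept for 4 h on OP50 plates with 4 mM auxin, or on control plates without auxin. It is not stated whether any solvent of the auxin was also in the control plates, so auxin and a solvent cannot be told apart. RNA was taken from whole worms, so in these bulk samples fewer cells of a type and less RNA per cell cannot be told apart.

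Animals clear foreign small molecules in steps. Cytochrome P450s, flavin-containing monooxygenases and short-chain dehydrogenases first modify the molecule, UDP-glucuronosyltransferases (UGTs) and glutathione *S*-transferases (GSTs) then join it to a sugar or to glutathione, and ATP-binding cassette (ABC) transporters carry the product out of the cell. In *C. elegans* the intestine is the main site of this work, and nuclear hormone receptors and the regulator SKN-1 control many of the genes. The intestine also makes yolk, stores fat and digests bacteria.

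The 8 N2 libraries were of similar depth, with 13964761 to 16537215 counts on auxin plates and 14214414 to 16563325 on control plates. Markers of whole adult worms were present, with all 25 genes of oocytes and eggshell, all 16 of the germline, all 19 of body wall muscle and all 15 of the intestine above the filter. On the second principal component, which held 21.03% of the variance, control replicate 4 lay at 43.06 and the other 7 libraries between -21.99 and 5.22. The muscle markers summed to 11090 CPM (counts scaled to a common library size) in control replicate 4, against 6451 to 8858 in the other controls and 6771 to 9226 on auxin plates. The hypodermis markers summed to 8520 CPM in that library and to 5055 to 6533 in the other controls. Markers of the first transcripts of embryos, which adults carry in the uterus, summed to 161, 152, 129.5 and 81.9 CPM in auxin replicates 1 to 4 and to 72.6, 61.9, 50.4 and 101 CPM in the controls, so the groups overlapped through both replicates numbered 4. Of 55 such genes 23 were tested, 6 rose and 1 fell, and *sdz-25*, *sdz-34* and *med-1* had no count in N2. The number risen was 1 or 2 without control replicates 2 or 3 or auxin replicates 1, 2 or 3, 10 and 11 without control or auxin replicate 4, and 16 without both.

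In N2 worms 685 of 11101 genes were higher on auxin plates (6.17%) and 545 were lower (4.91%) by edgeR's quasi-likelihood test at a Benjamini-Hochberg adjusted p under 0.05. These 2 shares are the ones to set beside the counts of each gene group. The median log2 fold change was 0.93 among the risen genes and -0.33 among the fallen genes, against 0.01 over all genes tested. A rise of more than 4-fold was found for 86 genes and a fall of more than 4-fold for 17. The 4 auxin libraries all lay above the 4 controls for 1023 genes (9.22%) and all below them for 967 (8.71%), and 634 of the risen and 502 of the fallen genes were among these. For 8736 genes the 95% interval of the change stayed within 2-fold in either direction, and for 1840 genes that did not pass the test it reached 2-fold.

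The calls were also counted by level of expression. Among the lowest 20% of genes by mean level, from 0.418 to 2.48 CPM without scaling for gene length, 5.99% rose and 0.81% fell. Among the highest 20%, from 74.0 to 26600 CPM, 3.78% rose and 13.1% fell. The 545 fallen genes made up 16.2% to 18.2% of scaled counts on auxin plates and 20.5% to 24.0% on control plates, and the 685 risen genes 2.54% to 2.78% and 1.75% to 1.95%. These shares describe genes picked by their change and were not tested.

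**Figure D1:**
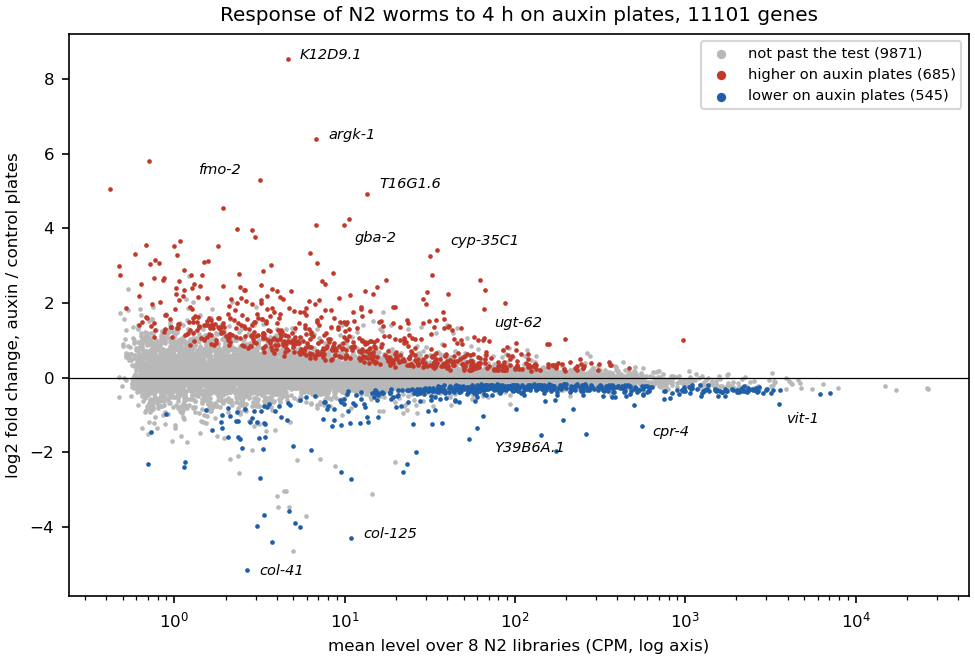
Log2 fold change of auxin over control plates (vertical axis) against mean level in CPM over the 8 N2 libraries (horizontal log axis) for 11101 genes, 1 point per gene, with genes past the test in colour. The 685 risen genes reach the largest changes at low and middle levels, and the 545 fallen genes form a band of small changes at high levels. The height of the point for K12D9.1 depends on a small count added before taking logs.

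Calls were followed as each library in turn was left out. Of the 86 genes that rose by more than 4-fold, 79 (91.9%) passed the test whichever of the 8 libraries was left out, against 125 of the 371 (33.7%) that rose by less than 2-fold. Of the 485 genes that fell by less than 2-fold, 112 (23.1%) did so. For falls of 2-fold to 4-fold it was 30 of 43 (69.8%), and for falls of 4-fold or more only 3 of 17 (17.6%). With control replicate 4 left out 2418 genes passed, 1181 of them risen and 1237 fallen, and with auxin replicate 1, auxin replicate 3, control replicate 2 or control replicate 3 left out 549, 650, 710 and 615 passed.

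The largest rise was that of K12D9.1, a gene with no other name in the annotation. It had 7.91, 11.4, 8.98 and 8.66 CPM in auxin replicates 1 to 4 and 0, 0, 0 and 0.0661 CPM in the controls. These were 593 counts in all auxin libraries and 1 count in all controls. The ratio was 545 with a counting interval of 97.4 to 21500, and the groups were far apart (adjusted p = 1.87e-07, edgeR's quasi-likelihood test).

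F44G3.2, now named *argk-1*, encodes an arginine kinase, an enzyme that buffers ATP. It had 12.3, 17.1, 12.1 and 12.2 CPM on auxin plates and 0.193, 0.0659, 0.145 and 0.198 CPM on control plates. The lowest auxin library was far above the highest control (log2 fold change 6.40, SE 0.273, adjusted p = 4.23e-08, edgeR's quasi-likelihood test). T16G1.6 had 21.0, 28.0, 27.3 and 28.3 CPM on auxin plates against 0.707, 0.593, 1.09 and 1.06 CPM. Auxin replicate 1 was the lowest of its group and still well above every control (log2 fold change 4.92, SE 0.191, adjusted p = 1.84e-08). T16G1.4 and T16G1.7, which lie in the same cluster on the chromosome, rose by 3.77 and 3.34 on the log2 scale. T16G1.7 overlaps T16G1.2, and reads of overlapping genes may be shared because the strand setting of the counting is not given.

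*gba-2*, which encodes a glucosylceramidase of sphingolipid breakdown, had 17.9, 19.2, 18.6 and 19.8 CPM on auxin plates and 1.09, 1.12, 1.23 and 0.991 CPM on control plates. Replicates within each group lay close together and the groups did not overlap (log2 fold change 4.08, SE 0.138, adjusted p = 8.57e-09, edgeR's quasi-likelihood test), with the limit that *gba-2* overlaps *gba-1*. F37H8.3, now *bigr-1*, rose by 4.10 and overlaps *lir-3*. The sequence-named genes C40H1.8 and B0024.4 rose by 3.97 and 3.52.

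**Figure D2:**
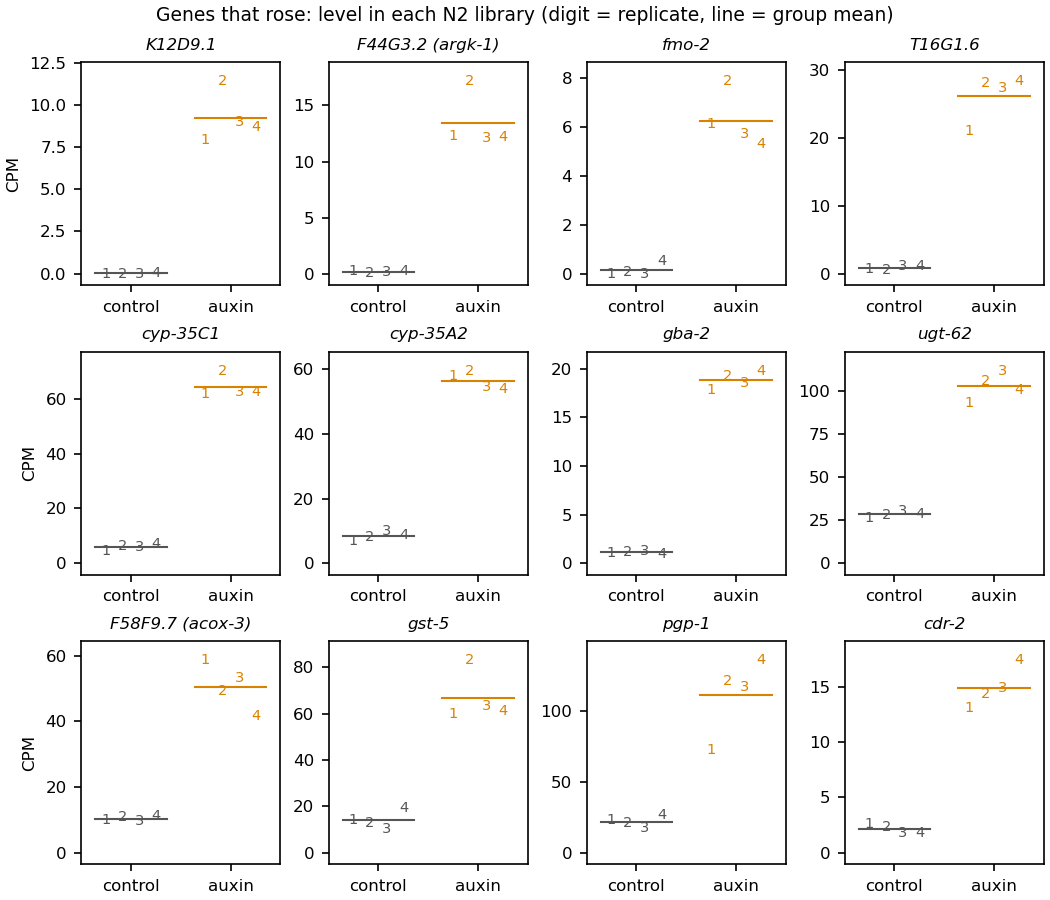
CPM (vertical axes, each from 0) in each N2 library for 12 genes that rose, with auxin and control replicates 1 to 4 shown by their numbers and a line at each group mean. In every panel the 4 auxin libraries lie above the 4 control libraries, and the control libraries of K12D9.1, *argk-1* and *fmo-2* lie at or near 0.

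P450 enzymes oxidise a compound as the first step of its clearance. In the *cyp-35* subfamily, whose members are induced by many foreign compounds in *C. elegans*, 6 of 10 genes were tested and all 6 rose, with a median log2 fold change of 3.09. *cyp-35C1* had 61.9, 70.2, 62.3 and 62.5 CPM on auxin plates and 4.56, 6.26, 5.81 and 7.13 CPM on control plates. The auxin libraries were level with each other and about an order of magnitude above every control (log2 fold change 3.43, SE 0.116, adjusted p = 8.57e-09, edgeR's quasi-likelihood test).

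*cyp-35A2* had 57.9, 59.5, 54.5 and 53.9 CPM against 6.88, 8.04, 10.1 and 8.72 CPM, with no overlap (log2 fold change 2.74, SE 0.106, adjusted p = 1.84e-08, edgeR's quasi-likelihood test). *cyp-35A3* had 21.3, 20.4, 17.6 and 21.5 CPM against 1.09, 1.45, 0.508 and 1.12 CPM. Control replicate 3 was the lowest library and the groups stood wide apart (log2 fold change 4.25, SE 0.212, adjusted p = 1.87e-07). *cyp-35A4* and *cyp-35A5* rose by 4.54 (SE 0.468) and 2.58 (SE 0.163). The *cyp-35A* genes are close copies of each other, so the share of reads assigned to each is uncertain.

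Outside this subfamily 19 of 44 tested P450 genes rose, with a median log2 fold change of 0.71. The number risen was 12 with 10 counts required in every library and 31 without both replicates 4. *cyp-33C8* had 25.1, 38.5, 30.9 and 25.5 CPM on auxin plates and 4.76, 3.89, 4.36 and 6.54 CPM on control plates, and every auxin library was more than 3 times the highest control (log2 fold change 2.61, SE 0.186, adjusted p = 5.42e-06, edgeR's quasi-likelihood test). The neighbours *cyp-13A6* and *cyp-13A7* rose by 3.66 and 3.99, *cyp-34A9* by 2.43 and *cyp-33A1* by 1.30.

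Of the 5 flavin-containing monooxygenase genes 3 rose. *fmo-2*, known in worms for its induction by fasting and low oxygen, had 6.12, 7.87, 5.72 and 5.29 CPM on auxin plates and 0, 0.0659, 0 and 0.528 CPM on control plates. A pair of controls had no count, control replicate 4 was the highest control, and the groups did not overlap (log2 fold change 5.30, SE 0.605, adjusted p = 0.000478, edgeR's quasi-likelihood test). *fmo-5* rose by 0.71 (SE 0.122). Of 25 tested short-chain dehydrogenase genes 11 rose and 1 fell, with 2 fallen when control replicate 4 was left out. *dhs-20* rose by 3.08 (SE 0.199) and overlaps F35B12.3 and F35B12.9, and *dhs-23* and *dhs-3*, an enzyme of lipid droplets, rose by 2.34 and 0.58.

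The conjugating enzymes come next in the clearance of a compound. Of 48 tested UGT genes, whose products add a sugar, 14 rose and 2 fell, with a median log2 fold change of 0.49. With control replicate 4 left out 25 rose, and with any other library left out 1 fell. *ugt-62* had 93.2, 106, 112 and 100.3 CPM on auxin plates and 26.5, 28.1, 30.5 and 28.7 CPM on control plates. Both groups were tight and did not overlap (log2 fold change 1.85, SE 0.0723, adjusted p = 1.84e-08, edgeR's quasi-likelihood test). *ugt-22*, which overlaps *srz-29*, had 134, 157, 131 and 136 CPM against 31.9, 29.6, 31.0 and 47.9 CPM. Control replicate 4 was the highest control and still far below the auxin libraries (log2 fold change 1.99, SE 0.151, adjusted p = 8.63e-05). *ugt-16*, *ugt-19* and *ugt-21* rose by 2.31, 2.07 and 2.49.

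Of 31 tested GST genes 10 rose and 1 fell, with a median log2 fold change of 0.48, and 16 rose without control replicate 4. Without control replicate 3 the number fallen was 0 and without auxin replicate 2 it was 2. *gst-4*, a target of SKN-1, had 22.9, 30.0, 22.4 and 21.9 CPM on auxin plates and 5.01, 3.62, 4.50 and 7.46 CPM on control plates. The groups did not overlap (log2 fold change 2.24, SE 0.199, adjusted p = 4.12e-05, edgeR's quasi-likelihood test), and *gst-4* overlaps *dhs-12*. *gst-5* had 59.7, 82.9, 63.3 and 60.9 CPM against 14.01, 12.7, 10.1 and 19.4 CPM, again with a wide gap (log2 fold change 2.24, SE 0.193, adjusted p = 0.0002), and overlaps *nos-1*. *gst-6* and *gst-33* rose by 1.88 and 2.46.

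Of 44 tested ABC transporter genes 8 rose and 2 fell, beside 6.17% and 4.91% of all genes, and 15 rose without control replicate 4. *pgp-1*, a P-glycoprotein of the intestine, had 72.1, 121, 117 and 135 CPM on auxin plates and 22.8, 20.9, 17.6 and 26.4 CPM on control plates. Auxin replicate 1 was the lowest of its group and above every control (log2 fold change 2.34, SE 0.215, adjusted p = 0.000522, edgeR's quasi-likelihood test). The P-glycoprotein *pgp-9* rose by 1.51 (SE 0.110), and the transporter gene *wht-1*, which overlaps *attf-4*, by 1.70 (SE 0.266). In the other direction *pmp-5*, of the peroxisomal membrane transporter family, had 30.5, 31.1, 20.7 and 22.4 CPM on auxin plates against 81.9, 75.1, 74.9 and 94.5 CPM. All auxin libraries were below all controls (log2 fold change -1.64, SE 0.141, adjusted p = 9.03e-05).

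Among possible regulators, 15 of 146 tested nuclear hormone receptor genes rose (10.3%, beside 6.17% of all genes). Their number was 7 to 21 with 1 library left out in turn, lowest without control replicate 3, auxin replicate 1 or auxin replicate 3, at 9 and 8 without control replicate 2 and auxin replicate 2, and highest without control replicate 4. *nhr-11* had 7.24, 6.11, 6.76 and 5.59 CPM on auxin plates and 2.38, 1.51, 1.597 and 2.31 CPM on control plates, with no overlap (log2 fold change 1.71, SE 0.209, adjusted p = 0.000327, edgeR's quasi-likelihood test). *nhr-202* and *nhr-212* rose by 1.46 and 1.11, and *nhr-202* overlaps *nhr-201*. Among 8 tested genes of the aryl hydrocarbon receptor and of tryptophan breakdown through kynurenine, 0 passed edgeR's quasi-likelihood test, 2 had an unadjusted p under 0.05 and DESeq2 called 1 of them, as fallen.

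**Figure D3:**
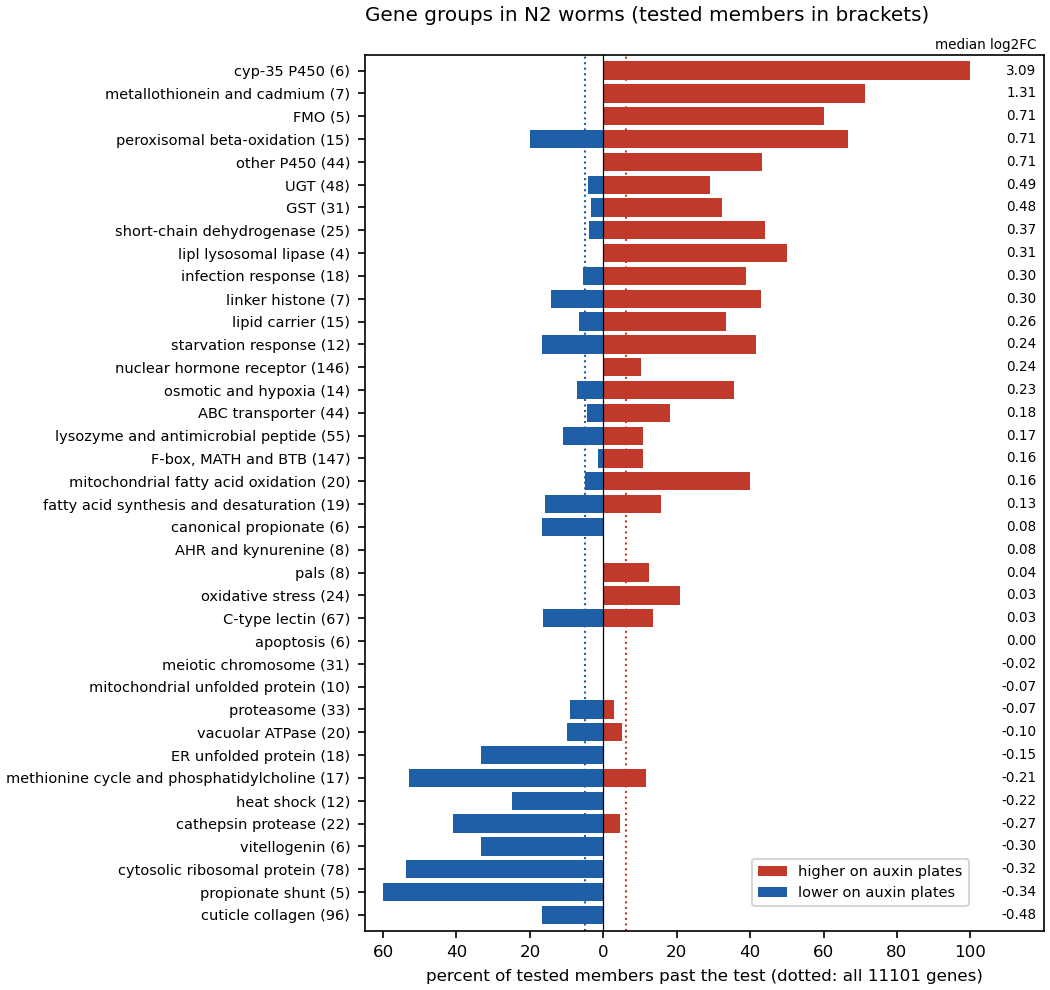
Percent of the tested members of each gene group that were higher (right) or lower (left) on auxin plates in N2 worms, with the share among all 11101 genes as dotted lines and the median log2 fold change of the group at the right. The *cyp-35* genes, the peroxisomal beta-oxidation genes and the cadmium-responsive genes lie farthest to the right, and the propionate shunt, ribosomal protein and methionine cycle genes farthest to the left. The place of the propionate shunt rests on 3 of 5 genes, of which 0 passed without auxin replicate 3 or 4. Members of a group are not replicates.

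Other stress genes moved less evenly. Of 7 tested metallothionein and cadmium-responsive genes 5 rose, with a median log2 fold change of 1.31. *cdr-2*, of a gene family named for a response to cadmium, had 13.1, 14.3, 14.9 and 17.4 CPM on auxin plates and 2.63, 2.31, 1.74 and 1.78 CPM on control plates, with a wide gap (log2 fold change 2.81, SE 0.172, adjusted p = 1.06e-06, edgeR's quasi-likelihood test). *cdr-1* and *cdr-4* rose by 3.06 and 1.85. Of 24 tested oxidative stress genes 5 rose, among them *gst-4*, the catalases *ctl-1* (0.56) and *ctl-2* (0.63) and the glutathione peroxidase *gpx-1* (0.92). *ctl-2* overlaps Y54G11A.7 and *gpx-1* overlaps *drsh-1*. *hmit-1.1*, a transporter gene induced by osmotic stress, rose by 1.43, and *cysl-2*, of hydrogen sulfide and cyanide metabolism, by 1.00 with an overlap with *vnut-1*. *nhr-57*, a target of the hypoxia factor HIF-1 that overlaps *lgc-1*, rose by 1.17.

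Of 12 tested heat shock genes 0 rose and 3 fell, and of 18 genes of the endoplasmic reticulum 0 rose and 6 fell. *hsp-4*, the BiP chaperone of the endoplasmic reticulum, had 625, 646, 652 and 720.1 CPM on auxin plates and 1023, 1036, 951 and 853 CPM on control plates. Every auxin library was below every control (log2 fold change -0.55, SE 0.0772, adjusted p = 0.00097, edgeR's quasi-likelihood test). *dnj-7* fell by 0.43. *hsp-1*, the constitutive HSP70, had 4668, 5295, 5212 and 5968 CPM against 7012, 8155, 7381 and 6120.0 CPM, and auxin replicate 4 came close to control replicate 4 (log2 fold change -0.44, SE 0.106, adjusted p = 0.0224). Without control replicates 2 or 3 or auxin replicates 1 or 3 its adjusted p was 0.0522 to 0.0829, and without each of these 4 libraries 1 heat shock gene passed, against 6 without control replicate 4. For the endoplasmic reticulum the number was 2 without auxin replicates 1 or 3, and 3 without control replicate 1 or auxin replicate 4. DESeq2 called 5 heat shock genes and 8 genes of the endoplasmic reticulum as fallen. Library totals alone gave 1 and 2, the replicate number as a block 0 and 2, and cyclic loess 2 and 2. Cyclic loess also gave 1 risen gene of the endoplasmic reticulum.

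Fat metabolism moved in both directions. Of 15 peroxisomal beta-oxidation genes, which shorten the side chains of ascaroside pheromones in worms, 10 rose and 3 fell, with a median log2 fold change of 0.71. F58F9.7, now *acox-3* and an acyl-CoA oxidase of the first step, had 58.5, 49.1, 53.2 and 41.6 CPM on auxin plates and 10.0, 10.9, 9.51 and 11.1 CPM on control plates. Auxin replicate 4 was the lowest of its group and several times every control (log2 fold change 2.28, SE 0.112, adjusted p = 1.77e-07, edgeR's quasi-likelihood test). All 4 enzyme steps of the pathway had a risen member. Next to the oxidase *acox-1* (0.93, SE 0.0960), the hydratase *maoc-1* rose by 1.35 (SE 0.0797), the dehydrogenase *dhs-28* by 0.89 (SE 0.0760) and the thiolase *daf-22* by 0.93 (SE 0.0914). *maoc-1* overlaps E04F6.6.

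In the mitochondrial pathway 8 of 20 tested genes rose and 1 fell. The number risen was 4 without control replicate 3, auxin replicate 1 or auxin replicate 3 and 5 without control replicate 2. *cpt-3*, a carnitine palmitoyltransferase, rose by 2.13 (SE 0.354) and *acdh-10*, an acyl-CoA dehydrogenase, by 0.41. *hacd-1*, a hydroxyacyl-CoA dehydrogenase gene that depends on the receptor NHR-49 in worms, had 31.99, 46.8, 41.3 and 50.6 CPM on auxin plates and 75.8, 83.3, 83.7 and 107 CPM on control plates. The groups did not overlap (log2 fold change -1.04, SE 0.153, adjusted p = 0.00393, edgeR's quasi-likelihood test). Among lysosomal lipases *lipl-2* rose by 2.16, and among fatty acid binding proteins *lbp-8* and *lbp-7* rose by 2.68 and 1.08.

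All 3 delta-9 desaturase genes, which make monounsaturated fatty acids, fell. *fat-7* had 125, 109, 119 and 126 CPM on auxin plates and 279, 298, 276 and 210.1 CPM on control plates. Control replicate 4 was the lowest control and still above all auxin libraries (log2 fold change -1.15, SE 0.0992, adjusted p = 3.53e-05, edgeR's quasi-likelihood test). *fat-5* had 64.4, 73.0, 75.8 and 74.3 CPM against 132, 133, 121 and 134 CPM, without overlap (log2 fold change -0.86, SE 0.0642, adjusted p = 5.2e-06), and *fat-6* fell by 0.50 (SE 0.0879). *fat-5* overlaps *twk-42*. The delta-5 desaturase gene *fat-4* rose by 0.35 (SE 0.0561). *fat-6* and *fat-7* are near-identical copies, so reads may be split between them.

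Of 17 tested genes of the methionine cycle and of phosphatidylcholine synthesis, which draws its methyl groups from that cycle, 9 fell and 2 rose. The number fallen was 6 to 8 with 1 library left out in turn, 4 with library totals alone and 5 with the replicate number as a block. The number risen was 0 without control replicates 1 or 3 or auxin replicate 1, and 1 without control replicate 2 or auxin replicates 2, 3 or 4. *mel-32*, a serine hydroxymethyltransferase, had 597, 604, 606 and 596 CPM on auxin plates and 916, 883, 856 and 930.5 CPM on control plates. The spread within each group was small beside the gap (log2 fold change -0.58, SE 0.0567, adjusted p = 6.39e-05, edgeR's quasi-likelihood test). The reductase *mthf-1*, which overlaps C06A8.6, fell by 0.59 and the phosphoethanolamine methyltransferase *pmt-2* by 0.54. *sams-1*, an *S*-adenosylmethionine synthase picked for its values and not by the naming rule, had 90.2, 74.6, 61.9 and 62.2 CPM against 169.7, 164, 178 and 338 CPM. Control replicate 4 was far above the other controls, and the groups did not overlap without it either (log2 fold change -1.56, SE 0.277, adjusted p = 0.0157).

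Of the 5 genes of the propionate shunt, a breakdown route that worms use when vitamin B12 is short, 3 fell and 0 rose. The number fallen was 0 without auxin replicates 3 or 4 and with library totals alone or cyclic loess, and 1 without control replicate 1 or auxin replicate 1.

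The vitellogenin genes encode yolk proteins made in the intestine. All 4 auxin libraries lay below all 4 controls for each of the 6 vitellogenin genes, and 2 of the 6 passed the test. Over all 11101 genes the auxin libraries lay below the controls for 967 (8.71%). *vit-1* had 2547, 2902, 2592 and 2683 CPM on auxin plates and 4279, 4478, 4086 and 4699 CPM on control plates (log2 fold change -0.71, SE 0.0777, adjusted p = 0.000147, edgeR's quasi-likelihood test). The number past the test was 5 without control replicate 4 and 1 without auxin replicate 3. The median of the 6 genes was -0.30, and cyclic loess normalisation turned it to 0.04, with 1 gene past the test. The number past the test was 6 with DESeq2, 5 with limma-voom, and 4 with DESeq2's size factors in edgeR, without the filter or with the trend of exon length removed. It was 1 in the fit of all 16 libraries.

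Cathepsin proteases digest protein in the gut and in lysosomes. Of 22 tested cathepsin protease genes 9 fell and 1 rose, with a median log2 fold change of -0.27. *cpr-4*, a cathepsin B of the gut, had 308, 361, 294 and 327 CPM on auxin plates and 784, 799, 781 and 815 CPM on control plates. The 4 controls were almost level and well above every auxin library (log2 fold change -1.30, SE 0.0700, adjusted p = 3.88e-07, edgeR's quasi-likelihood test). The aspartic protease gene *asp-10* fell by 1.21 (SE 0.132), *asp-6* by 0.49, *asp-2* by 0.39 with an overlap with *inx-10*, and the cathepsin B gene *cpr-5* by 0.47.

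The summed intestine markers were 3710 to 4513 CPM on auxin plates and 4450 to 5011 CPM on control plates, and the groups overlapped through auxin replicate 2 and control replicate 3. Of the 15 markers 4 rose and 2 fell, beside 6.17% and 4.91% of all genes, and none was at 0. The number risen was 1 without control replicate 2 and 2 without control replicate 3 or auxin replicates 1, 2 or 3, and the number fallen was 1 without control replicates 1 or 2 or auxin replicates 1, 3 or 4. Library totals alone gave 6 risen and DESeq2 gave 4 fallen. The part of these markers in the falls of yolk and protease genes was not tested.

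Of 55 tested lysozyme, saposin-like and antimicrobial peptide genes 6 rose and 6 fell, beside 6.17% and 4.91% of all genes. The lysozyme gene *lys-4* had 150.5, 167, 152 and 162 CPM on auxin plates and 297, 280.5, 287 and 266 CPM on control plates, with every auxin library far below every control (log2 fold change -0.84, SE 0.0577, adjusted p = 2.45e-06, edgeR's quasi-likelihood test). *lys-6* fell by 1.07 and the saposin-like gene *spp-1*, which overlaps T07C4.3, by 0.86. The saposin-like gene *spp-8* had 74.2, 64.3, 66.0 and 70.1 CPM against 32.9, 25.6, 26.1 and 25.5 CPM. It was the opposite case, with all auxin libraries above all controls (log2 fold change 1.32, SE 0.0909, adjusted p = 2.45e-06). The number risen in this group was 3 without control replicates 2 or 3 or auxin replicates 1 or 2, and 4 without auxin replicate 3.

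Of 67 tested C-type lectin genes 9 rose and 11 fell, beside 6.17% and 4.91% of all genes. *clec-67* rose by 2.06 and *clec-210*, which overlaps *srt-56*, by 1.77. With auxin replicate 1 left out the number fallen was 2, with auxin replicate 3 it was 4 and with control replicates 2 or 3 it was 7, and the number risen was 14 without control replicate 4. Of 18 tested genes known to answer bacterial infection in worms 7 rose and 1 fell. F35E12.5, now *irg-5*, rose by 1.70 and F53A9.8 by 1.45. The number risen was 2 without control replicates 2 or 3 or auxin replicates 1 or 2, and 4 without auxin replicate 3.

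Some falls of more than 2-fold were of genes with no assigned role. Y39B6A.1 had 112, 147, 122 and 160.4 CPM on auxin plates and 386, 408, 373 and 371 CPM on control plates. The groups were far apart (log2 fold change -1.51, SE 0.102, adjusted p = 4.44e-06, edgeR's quasi-likelihood test). F53F1.4 had 5.67, 7.44, 6.70 and 6.43 CPM against 44.2, 26.6, 25.7 and 54.4 CPM. Controls 1 and 4 were the highest and all controls were well above all auxin libraries (log2 fold change -2.53, SE 0.269, adjusted p = 0.000851). C40H1.7 fell by 2.40 (SE 0.375), and its neighbour in name C40H1.8 was among the largest rises.

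**Figure D4:**
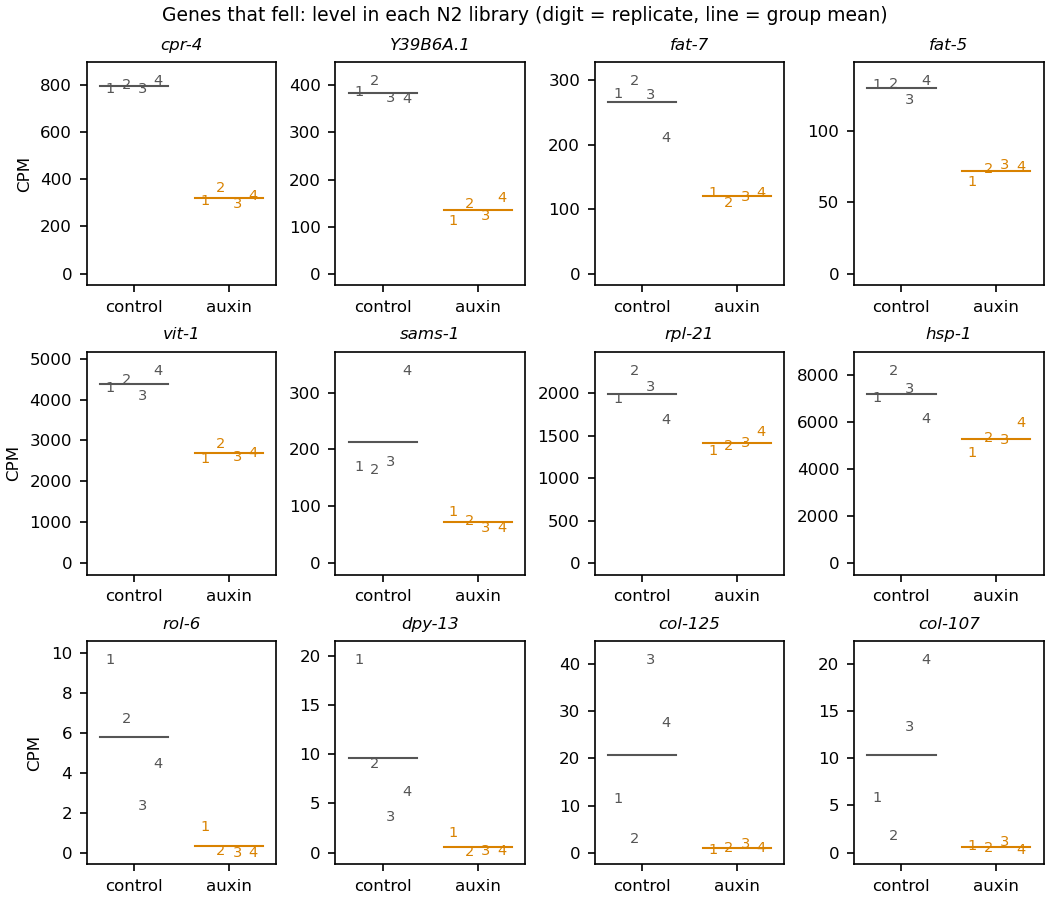
CPM (vertical axes, each from 0) in each N2 library for 12 genes that fell, with auxin and control replicates 1 to 4 shown by their numbers and a line at each group mean. The libraries are tight for *cpr-4*, *fat-5* and *vit-1*, and the controls spread widely for the collagens *rol-6*, *dpy-13*, *col-125* and *col-107*.

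The ribosomal protein genes gave small falls, whose number moved with single libraries and with the processing. Of 78 tested genes for cytosolic ribosomal proteins 42 fell and 0 rose, 73 had an unadjusted p under 0.05, and the median log2 fold change was -0.32. *rpl-21* had 1321, 1378, 1419 and 1547 CPM on auxin plates and 1932, 2265, 2071 and 1691 CPM on control plates. Control replicate 4 was the lowest control and lay near the highest auxin library (log2 fold change -0.49, SE 0.0929, adjusted p = 0.00673, edgeR's quasi-likelihood test), and *rps-24* fell by 0.40. All ribosomal protein genes took 12.1% to 13.4% of the raw counts of a library on auxin plates, against 14.4%, 16.1%, 15.1% and 12.8% in control replicates 1 to 4. The number fallen was 74 without control replicate 4 and 12, 12 and 6 without control replicates 1, 2 and 3. It was 4, 5 and 21 with auxin replicates 1, 3 and 4 left out, and 0 when the *syp-2::AID* libraries were added to the fit. DESeq2 called 71 as fallen, library totals alone gave 14 and the replicate number as a block 13. Cyclic loess gave 10, with a median log2 fold change of -0.12.

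The collagens of the cuticle, which are made in the hypodermis, held the largest fitted falls, and these rested on few libraries. Of 96 tested genes 16 fell and 0 rose, 32 had an unadjusted p under 0.05, and DESeq2 called 27 as fallen. Together the 16 genes summed to 63.1 to 75.8 CPM on auxin plates and to 232.5, 165, 366 and 298 CPM in control replicates 1 to 4. The 16 genes summed to 74.4 to 160.5 CPM in all 8 *syp-2::AID* libraries, whether on auxin or not. They were picked because they fell in these N2 libraries, so the gap between the N2 groups follows from that choice. The 80 other tested collagens are not in the sums. The hypodermis markers summed to 5095 to 7063 CPM on auxin plates and 5055 to 8520 CPM on control plates, and of 13 tested the 2 that fell were the collagens *rol-6* and *dpy-13* themselves. The part of hypodermal tissue in these falls was not tested.

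*col-41* had 0.449, 0.0702, 0 and 0 CPM on auxin plates and 11.3, 5.47, 1.67 and 2.44 CPM on control plates. *rol-6* had 1.29, 0.0702, 0 and 0 CPM against 9.64, 6.72, 2.32 and 4.43 CPM, and *dpy-13* had 1.96, 0.0702, 0.184 and 0.180 CPM against 19.5, 9.03, 3.63 and 6.14 CPM. These 3 genes were highest in control replicates 1 and 2, and the groups did not overlap. *col-125* had 0.505, 0.913, 1.78 and 0.962 CPM on auxin plates and 11.4, 2.90, 40.8 and 27.5 CPM on control plates, and *col-107* had 0.673, 0.492, 1.11 and 0.241 CPM against 5.79, 1.71, 13.3 and 20.3 CPM. This pair was highest in control replicates 3 and 4, and *col-125* overlaps *best-7*.

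By edgeR's quasi-likelihood test the log2 fold changes of these 5 genes were -5.18 (adjusted p = 0.019), -3.98 (0.0446), -3.91 (0.0392), -4.30 (0.0281) and -4.01 (0.027) in the same order. The call of *col-41* was lost without auxin replicate 2 (0.0509) or 3 (0.0516). *rol-6* lost it without any library but auxin replicate 1 (0.052 to 0.106), *dpy-13* without any but control replicate 4 and auxin replicate 1 (0.0529 to 0.0967), and *col-125* and *col-107* without control replicate 3 or any auxin library (0.0529 to 0.0969). The number of collagens fallen was 2, 2 and 3 without auxin replicates 2, 3 and 4 and 10 without control replicate 3. *col-155* had 16.3, 19.7, 17.1 and 20.3 CPM against 24.8, 29.9, 32.5 and 29.1 CPM, a smaller fall with tight groups that kept its call without each library (log2 fold change -0.66, SE 0.107, adjusted p = 0.00258).

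Genes of the germline, the tissue of the study's question, rarely passed the test. Among 31 tested genes for the synaptonemal complex, chromosome axis, cohesin and double-strand breaks 0 passed edgeR's quasi-likelihood test, 1 had an unadjusted p under 0.05, DESeq2 called 0, and the changes ran from -0.20 to 0.24 on the log2 scale. Their median was -0.02. Without control replicate 4 the count was 0 risen and 2 fallen, and scaling by library totals alone turned the median to 0.12, with 3 risen and 0 fallen. Over all genes 6.17% rose and 4.91% fell. Among 25 markers of oocytes and eggshell 1 rose and 0 fell, and among 16 markers of the germline 0 rose and 1 fell. Without control replicate 4 the number fallen was 5 in each of these sets. Without control replicates 1, 2 or 3 or auxin replicates 1 or 3 it was 0 for the germline, and 0 oocyte markers rose when auxin replicate 3 was left out and 2 when auxin replicate 2 was. DESeq2 gave 3 fallen in each set, and 3 oocyte markers rose with library totals alone or cyclic loess. For markers of body wall muscle (19 tested), pharynx (13) and neurons (15), 0 genes passed edgeR's test, and an unadjusted p under 0.05 was found for 0, 2 and 0 of them. DESeq2 called 0 in each of these 3 sets, and 2 pharynx markers rose without control replicate 4 and 1 without control replicate 1.

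Neighbours along the chromosome were also counted, as a description. Of 541 risen genes with a tested neighbour on the chromosome 120 had a risen neighbour (22.2%), against 788 of 9310 tested genes (8.46%). For the fallen genes it was 83 of 473 (17.5%), against 742 of 9310 (7.97%). Neighbours that overlap or are copies of each other can share reads.

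The other strain gave a second set of libraries, with their own controls, in which the same agent met the tag and TIR1. In *syp-2::AID* worms 304 of 11291 genes rose on auxin plates (2.69%) and 89 fell (0.788%). Auxin replicates 3 and 4 of that strain stood apart from the rest. Ribosomal protein genes took 19.9% and 20.0% of their raw counts and vitellogenins 5.39% and 5.17%. In the 14 other libraries of the series these shares were at most 16.1% and at least 7.62%. Shared counts and values are given with all libraries first and then without auxin replicates 3 and 4 of that strain.

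Of the genes tested in both strains 237 rose in both, which was 35.2% of the 673 risen in N2 and 80.6% of the 294 risen in *syp-2::AID*. The number that fell in both was 50, or 9.26% of 540 and 61.0% of 82, and 0 genes went opposite ways. With the *syp-2::AID* auxin replicates 3 and 4 left out 265 genes rose in both strains and 78 fell in both. The shared rises were also counted by their size in N2. Of the 79 genes that rose by 4-fold or more in N2 and were tested in *syp-2::AID* worms 64 (81.0%) rose there too, and their median log2 fold change there was 2.56, against 82 of 371 (22.1%) and a median of 0.27 for the genes that rose by less than 2-fold. Without the libraries that stood apart 64 of 85 and 108 of 371 rose there too.

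The direction of the changes was compared in the same way. Among the 540 genes fallen in N2 the change in *syp-2::AID* worms had the same sign for 50.2%, against 49.5% of all genes. For the 673 genes risen in N2 the same sign was found for 77.4%, against 50.5% of all genes. Without auxin replicates 3 and 4 of that strain the same sign was found for 88.1% of 545 fallen genes, against 48.3% of all genes, and for 83.0% of 681 risen genes, against 51.7%. The ribosomal protein genes had a median log2 fold change of -0.32 in N2, of 0.34 in all *syp-2::AID* libraries and of -0.14 without auxin replicates 3 and 4. The collagens had medians of -0.48, 0.13 and -0.06 in the same order. Auxin replicates 3 and 4 were set apart by their high share of ribosomal protein counts. Leaving them out therefore lowers the ribosomal median by that choice. The genes fallen in N2 include 42 ribosomal protein genes, so their share with the same sign is affected too.

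**Figure D5:**
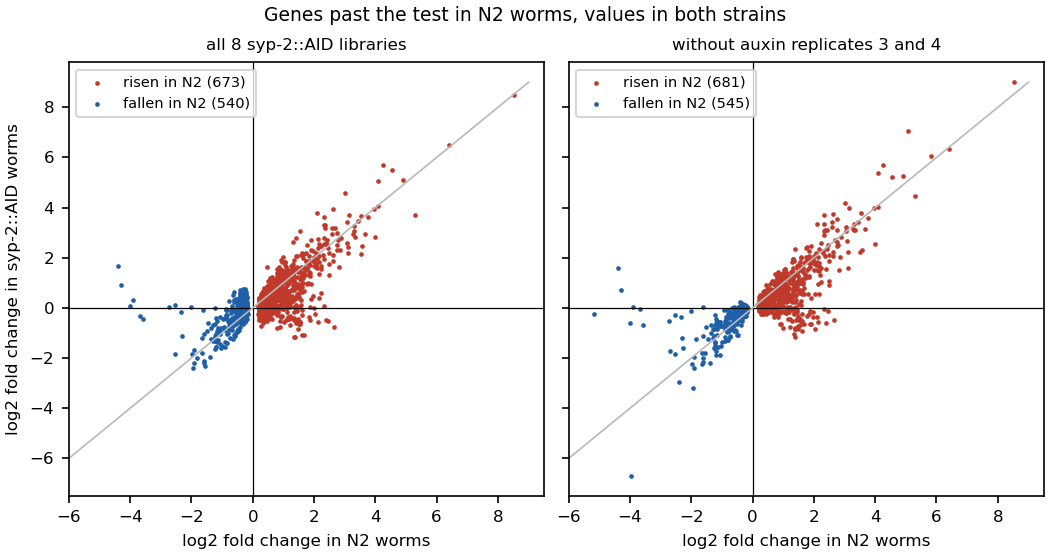
Log2 fold change of auxin over control plates in *syp-2::AID* worms (vertical axis) against that in N2 worms (horizontal axis) for genes past the test in N2, with equal values on the grey line, from all *syp-2::AID* libraries (left) and without auxin replicates 3 and 4 (right). Genes that rose strongly lie along the line in both panels, and the genes with small falls lie below 0 on the vertical axis mainly in the right panel.

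Gene by gene, *argk-1* (F44G3.2) rose by 6.40 in N2 and 6.48 in *syp-2::AID* worms on the log2 scale (6.34 there with auxin replicates 3 and 4 left out), T16G1.6 by 4.92 and 5.09 (5.28), *cyp-35C1* by 3.43 and 3.47 (3.44), and *pgp-1* by 2.34 and 2.56 (3.06). The log2 fold change of *cpr-4* was -1.30 in N2 and -0.69 in *syp-2::AID* worms (-0.84 without those libraries), that of *fat-7* was -1.15 and -0.91 (-1.07), that of *pmp-5* was -1.64 and -1.80 (-2.22) and that of *sams-1* was -1.56 and -2.30 (-1.79). *pgp-9* was 1.51 in N2 and 0.59 in *syp-2::AID* worms (0.98), where it did not pass the test with all libraries (adjusted p = 0.236, edgeR's quasi-likelihood test).

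The difference between the strains was tested itself, as an interaction over all 16 libraries. Of 11776 genes 2 passed (0.017%), 2069 had an unadjusted p under 0.05 and DESeq2 called 131, and with 1 of the 16 libraries left out in turn edgeR called 0 to 3. Of the 1230 genes past the test in N2 only *cht-1* was among them. *cht-1*, a chitinase gene that overlaps *slcf-2*, had 73.6, 51.8, 50.6 and 29.9 CPM on auxin plates and 19.9, 16.8, 13.3 and 20.2 CPM on control plates of N2. Auxin replicate 4 was the lowest of its group and above every control (log2 fold change 1.55, SE 0.275, adjusted p = 0.0133, edgeR's quasi-likelihood test), and without control replicate 2 the adjusted p was 0.0542.

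In *syp-2::AID* worms the change of *cht-1* was -0.57, a difference of 2.09 (adjusted p = 0.0304, edgeR's quasi-likelihood test), which passed in 3 of the 16 fits that left out a library (0.00111 to 0.108). The other gene, *egl-1*, a trigger of apoptosis, did not pass in N2, where the groups overlapped with 0.786, 0.702, 0.492 and 0.902 CPM on auxin plates and 1.16, 0.791, 1.16 and 0.859 CPM on control plates (log2 fold change -0.45, SE 0.317, adjusted p = 0.388). It was 2.60 in *syp-2::AID* worms, and the difference of -3.08 (adjusted p = 0.0304) passed in 3 of 16 such fits (0.0402 to 0.126).

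The early embryo markers, which include the *sdz* genes, had a median of 0.93 in N2 and of -0.62 in *syp-2::AID* worms, or -0.49 there without the libraries that stood apart. *sdz-30* rose by 1.49 in N2 and *sdz-6* fell by 2.31. Their part in the difference between the strains was not tested.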

How the data were processed

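Whole-worm RNA was sequenced as paired-end reads on an Illumina HiSeq. Per the labels, the authors made raw read counts per gene, with bcl2fastq 2.1.7, alignment to ce10 with TopHat2 2.0.11, and featureCounts (Rsubread 1.20.6). No source used here names the annotation or strand setting. The deposited counts of the 8 N2 libraries were tested alone with edgeR 4.0.16 in R 4.3.3 (TMM factors, filterByExpr with a minimum of 10 counts, robust quasi-likelihood test, Benjamini-Hochberg threshold 0.05), after the script was tested on simulated data. DESeq2 1.42.0 and limma 3.58.1 were alternatives, with other scalings, filters and left-out libraries. CPM used TMM factors. Standard errors and 95% intervals came from edgeR.

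Genes were named by rule: the 15 largest rises and falls past the threshold with a mean of at least 1 CPM and groups that did not overlap, up to 5 members of each gene list by adjusted p, the 5 smallest adjusted p in each direction, the 10 largest strain differences and the 10 highest means among called genes. Not every gene so named is described, and 1 gene outside the rule is marked. Members and lists were chosen with earlier results of these data known. Names, overlaps and neighbours came from a WBcel235 annotation, to which 10799 of the tested genes matched, and no coordinates were used since the build differs. The 11 gene names that a spreadsheet had turned into dates are not named.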

Additional observations from a re-analysis of the deposited data

Results flagged for a closer look

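Among 222 groups of 4 libraries examined, 25 held a library far from the other 3 by Dixon's criterion, and chance gives about 1 in 20. In control replicate 4 these were K12D9.1 (0.0661 CPM), *fmo-2* (0.528 CPM), *cyp-13A7* (0.0661 CPM), *ugt-22* (47.9 CPM), *pgp-9* (20.1 CPM), *fat-4* (115 CPM), *sams-1* (338 CPM) and *dnj-7* (70.1 CPM). In control replicate 1 they were *cyp-34A9* (6.36 CPM), *cdr-1* (0.257 CPM) and *spp-8* (32.9 CPM), and in control replicate 2 the summed sperm markers (90.1 CPM, against 16.3 to 20.8 CPM in the other controls). In auxin replicate 2 they were F44G3.2 (17.1 CPM), *cyp-35C1* (70.2 CPM), *gst-5* (82.9 CPM), *gst-4* (30.0 CPM) and *lipl-2* (1.4 CPM). In auxin replicate 1 they were T16G1.6 (21.0 CPM), *col-41* (0.449 CPM), *rol-6* (1.29 CPM) and *dpy-13* (1.96 CPM). In auxin replicate 4 they were *cyp-34A9* (21.1 CPM), *dhs-28* (181 CPM), *maoc-1* (50.6 CPM) and F35E12.5 (2.23 CPM). The rate of 1 in 20 does not hold for counts near 0, such as the 1 control count of K12D9.1. It does not hold for genes named by their values either, so an excess over chance was not tested.

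The change with auxin differed between N2 and *syp-2::AID* worms by an interaction test over 16 libraries for *cht-1* (2.09) and *egl-1* (-3.08), given as the N2 value minus the *syp-2::AID* value on the log2 scale.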

How the results depend on the processing

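Of 100 genes followed through 21 alternatives, 99 passed the test in N2. Of these 89 kept their direction and their call under every alternative in which they were tested, and none changed direction. Genes were named mainly by size of change or adjusted p, so this share does not stand for all calls. Over all calls 279 of 685 risen genes (40.7%) and 77 of 545 fallen genes (14.1%) were kept under every alternative. The counts moved more. All N2 genes past the test were 640 (fallen 170) with all 16 libraries in the fit, and DESeq2 gave 902 fallen. Scaling by library totals alone gave 1649 risen and 172 fallen, so that 90.6% of calls were rises, with the median of all genes shifted by 0.136. With the replicate number as a block the counts were 591, 404 risen and 187 fallen. Same-numbered libraries did not deviate together (r of 0.0473, -0.312, -0.0703 and -0.388), so the numbers were not taken to pair the samples. Leaving out both replicates 4, chosen after seeing the data, gave 2594, 1366 and 1228. With 1 library left out the ranges were 549 to 2418, 376 to 1181 and 173 to 1237. In *syp-2::AID* worms DESeq2 gave 763 genes, 527 risen and 236 fallen, the block 48 fallen, and leaving out auxin replicates 3 and 4 gave 152 fallen. With 1 library left out the ranges were 259 to 464, 199 to 349 and 50 to 115. For the strain difference the counts were 131 by DESeq2, 0 with the block, 1 without those 2 libraries and 0 to 3 with 1 library left out. The cause of these moves was not tested. Removing a trend with exon length and cyclic loess, also chosen after seeing the data, gave 1247 and 1244 genes. At 13964761 to 16563325 counts a library, counting error limits mainly the genes near the filter.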
